A study of Homo sapiens with 52 samples.

Results

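The gene expression of WI-38 cells was examined on days 3 and 4 after DNA damage by doxorubicin. WI-38 is a normal human lung fibroblast line. In the DNA damage group (DDR-Sen), cells received 250 nM doxorubicin (DXR) for 24 h, were washed and were cultured in fresh medium. Day 0 was the end of the treatment. Untreated cells were young WI-38 cells of the same line without DXR. Each group had 2 mRNA-seq libraries among the 52 of the series, which also held cells treated with SDS or KCl and replicatively senescent cells, not analysed here. All genes with a mean normalized count of at least 10 in both comparisons with the untreated cells were taken, 14603 of 59408 features, and the 2 libraries of each group could be separated for 14559 of them. Over these genes the libraries held 12984515 to 44379259 reads. In each pair of values below, the library with more reads is given first. The spread that the tests measure is that between 2 libraries of a group.

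Doxorubicin stalls topoisomerase II on DNA and leaves double-strand breaks. The breaks activate the ATM and ATR kinases, which stabilize the transcription factor p53. p53 induces the CDK inhibitor p21 (CDKN1A), the retinoblastoma family then stays bound to E2F, and genes for S phase and mitosis are shut off. If the arrest becomes permanent, the cell is called senescent, with less lamin B1, more p16 (CDKN2A) and a senescence-associated secretory phenotype (SASP) of cytokines, growth factors and proteases.

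The fibroblast identity was checked first. All 12 fibroblast markers passed the filter, and the sum of the 7 that could be separated by library was 71350 to 81560 normalized counts in untreated cells, 68310 to 75060 on day 3 and 68980 to 69000 on day 4. Of these 7, 3 fell and 0 rose on each day (limma), namely FAP, S100A4 and PDGFRB, with log2 differences of -0.52, -0.64 and -0.22 on day 3 and -0.79, -0.49 and -0.30 on day 4. With a single library left out, the call of PDGFRB could be lost on each day and that of S100A4 on day 4. The defining markers of epithelial cells (EPCAM and CDH1), endothelial cells (PECAM1 and CDH5) and leukocytes (PTPRC) were below the filter. Of the other markers, 3 of 9 epithelial ones passed it (KRT8, KRT19 and CLDN4), 2 of 7 endothelial ones (TEK and VWF) and 1 of 11 leukocyte ones (CD14). The epithelial sum was 1678 to 2104 in untreated cells, 2351 to 3204 on day 3 and 2495 to 2900 on day 4, and 0 of the 3 passed the test on either day (limma; KRT19 adjusted p = 0.0541 and 0.0503). The endothelial sum was 2755 to 2978, 2196 to 3091 and 2045 to 2054, and TEK fell on day 4 (-0.48, adjusted p = 0.0408, limma), a call lost with any one of the 4 libraries left out. CD14 was at 25.5 to 27.5, 37.8 to 40.2 and 24.6 to 32.5. The part of these markers in the results was not tested.

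On day 3, 2995 of 14559 genes differed from untreated cells at an adjusted p under 0.05 (limma, Benjamini-Hochberg), which is 20.6% of those tested, 1416 higher (9.73%) and 1579 lower (10.8%). On day 4, 3610 genes differed (24.8%), 1666 higher (11.4%) and 1944 lower (13.4%). Both days were compared with the same 2 untreated libraries, so the counts are not independent. The untreated libraries carry no day, so effects of DXR and of time in culture cannot be told apart. The scaling used sets the median difference of all genes near 0, and scaling by total reads gave medians of 0.0199 on day 3 and 0.0339 on day 4 (log2). In RNA from whole cultures, fewer cells that express a gene and less RNA per cell cannot be told apart.

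The proliferation marker MKI67 was high in untreated cells, 5495 and 4304 normalized counts, and low in all 4 DXR libraries, 256 and 310 on day 3 and 416 and 299 on day 4. Its log2 difference from untreated cells was -4.10 ± 0.18 (SE) on day 3 (adjusted p = 8.38e-06, limma) and -3.78 ± 0.18 on day 4 (adjusted p = 1.32e-05, limma). LMNB1, which encodes lamin B1 of the nuclear lamina, was at 1520 and 1292 in untreated cells, 91.3 and 134 on day 3 and 87.9 and 77.6 on day 4. The groups did not overlap for either gene, and the log2 difference of LMNB1 was -3.65 ± 0.19 on day 3 and -4.07 ± 0.19 on day 4 ( adjusted p = 2.08e-05 and 1.32e-05, limma).

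CDKN1A, the p21 gene, rose on both days. It was at 23330 and 25230 normalized counts in untreated cells, 52420 and 55290 on day 3 and 54400 and 49940 on day 4, differences of 1.15 ± 0.08 and 1.10 ± 0.08 (log2; adjusted p = 7.5e-05 and 8.42e-05, limma). At this level the spread between the libraries of days 3 and 4 may be partly set by the recovery of reads described below. CDKN2A, the p16 and ARF gene, moved little. It was at 668 and 666 in untreated cells, 889 and 800 on day 3 and 808 and 937 on day 4, with log2 differences of 0.34 and 0.38 (adjusted p = 0.0411 and 0.0226, limma). The call on day 3 was lost when any of its 4 libraries was left out (adjusted p of 0.0542 to 0.169), and that on day 4 when either untreated library or the shallower day 4 library was left out (0.067 to 0.178).

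**Figure D1:**
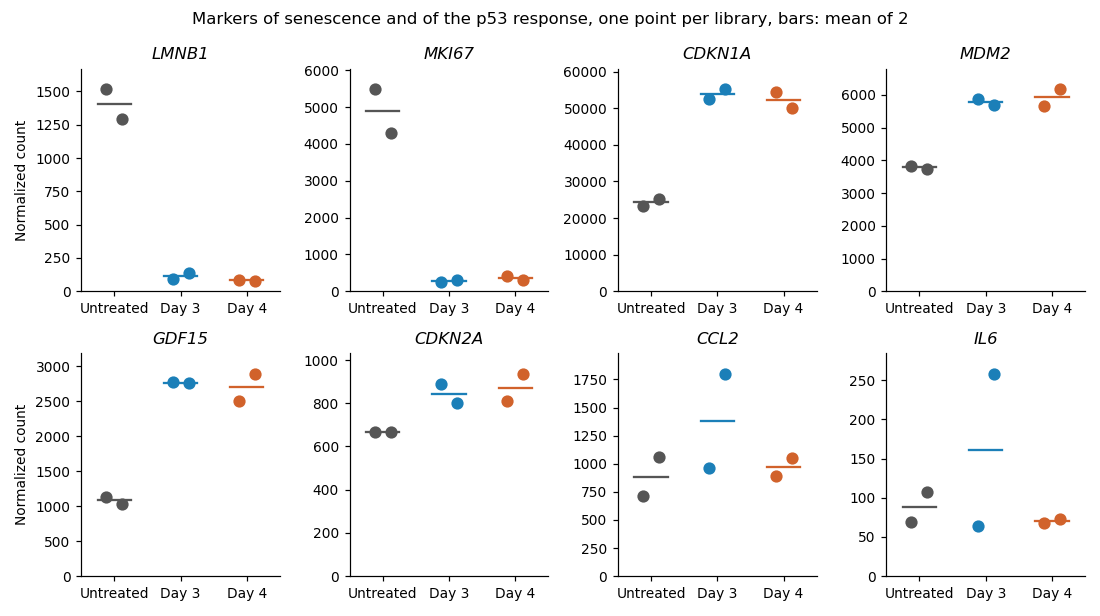
Normalized counts (y axis, from 0) of 8 genes in untreated, day 3 and day 4 cells. Each point is a library and each bar the mean of 2. LMNB1 and MKI67 dropped to low levels on both days, CDKN1A, MDM2 and GDF15 rose without overlap, and the 2 day 3 libraries lie apart for CCL2 and IL6.

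The genes of mitosis had the lowest median of the 16 lists read. Of 36 genes of the list tested, 36 fell on day 3 and 36 on day 4, with a median log2 difference of -3.41 and -3.22, against 0.0037 and 0.0055 over all genes. The share of all genes that fell was 10.8% on day 3 and 13.4% on day 4. BIRC5 (survivin, a subunit of the chromosomal passenger complex) was at 1790 and 2068 in untreated cells and at 98.1 to 169 in the DXR libraries. CDC20, the activator of the anaphase-promoting complex, was at 2086 and 1894 in untreated cells and at 106 to 146 in the DXR libraries. KIF18B and KIF20A, both kinesins of the spindle, had log2 differences of -3.83 and -4.02 on day 3 and -3.88 and -3.58 on day 4. AURKA, a spindle pole kinase, was among the genes of the list that fell least, with differences of -0.91 on day 3 and -1.18 on day 4.

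All 32 genes of DNA replication fell on each day too, by less, with medians of -2.04 and -1.91. TK1, thymidine kinase of the salvage pathway, was at 2390 and 2299 in untreated cells, 165 and 181 on day 3 and 212 and 149 on day 4. RRM2, the ribonucleotide reductase subunit that limits dNTP supply in S phase, had differences of -3.23 and -3.16. MCM10 and CDC45, which start and form the replicative helicase, had differences of -3.28 and -2.70 on day 3 and -3.77 and -3.40 on day 4. PCNA, the sliding clamp, had the smallest fall of the list. It was at 2726 and 2540 in untreated cells and at 2022 to 2250 in the DXR libraries, differences of -0.29 and -0.34. With any single library left out, 30 to 32 of the replication genes and 35 or 36 of the mitosis genes still passed the test in the same direction.

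Promoters of the mitosis and replication genes are shown because both lists fell whole and their promoters carry different motifs. Many genes of mitosis have a CHR element, TTTGAA, read by the DREAM complex, while genes of S phase often have an E2F site, here GCGGGAA. In the RefSeq promoters of GRCh38.p14, 250 bases before to 50 after the start and on both strands, TTTGAA was found in 22 of 31 mitosis promoters (71%) and 1 of 28 replication promoters (3.57%), against 15.4% of all 27305 promoters and 9.76% of those of tested genes. GCGGGAA was found in 3 of 31 mitosis promoters (9.68%) and 14 of 28 replication promoters (50%), against 6.56% of all and 10.1% of those of tested genes. Both motifs end in GAA, and neither contains the other. The 2 genes of each list with the lowest mean difference whose promoter held the list's motif are printed 5′ to 3′, with the motif in capitals on either strand (TTCAAA and TTCCCGC are its reverse complements).
CDC20, chr1:43358731-43359030, plus strand: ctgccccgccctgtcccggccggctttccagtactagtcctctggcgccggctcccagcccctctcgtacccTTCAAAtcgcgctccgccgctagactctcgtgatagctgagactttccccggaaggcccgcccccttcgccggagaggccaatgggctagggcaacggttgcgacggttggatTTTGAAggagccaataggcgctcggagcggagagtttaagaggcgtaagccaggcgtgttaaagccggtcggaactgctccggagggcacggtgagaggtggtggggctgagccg
MKI67, chr10:128126374-128126673, minus strand: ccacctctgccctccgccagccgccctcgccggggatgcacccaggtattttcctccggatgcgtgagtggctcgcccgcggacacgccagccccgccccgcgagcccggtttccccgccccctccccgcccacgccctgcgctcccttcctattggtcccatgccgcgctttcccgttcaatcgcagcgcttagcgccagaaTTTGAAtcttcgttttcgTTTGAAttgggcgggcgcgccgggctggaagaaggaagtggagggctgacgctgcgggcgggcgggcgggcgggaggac
DTL, chr1:212035498-212035797, plus strand: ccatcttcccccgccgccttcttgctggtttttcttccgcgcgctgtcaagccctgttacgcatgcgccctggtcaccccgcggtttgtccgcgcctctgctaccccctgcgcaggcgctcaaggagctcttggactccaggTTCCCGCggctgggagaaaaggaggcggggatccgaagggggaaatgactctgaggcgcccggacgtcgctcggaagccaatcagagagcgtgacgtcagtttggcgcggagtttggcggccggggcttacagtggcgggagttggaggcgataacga
CLSPN, chr1:35769929-35770228, minus strand: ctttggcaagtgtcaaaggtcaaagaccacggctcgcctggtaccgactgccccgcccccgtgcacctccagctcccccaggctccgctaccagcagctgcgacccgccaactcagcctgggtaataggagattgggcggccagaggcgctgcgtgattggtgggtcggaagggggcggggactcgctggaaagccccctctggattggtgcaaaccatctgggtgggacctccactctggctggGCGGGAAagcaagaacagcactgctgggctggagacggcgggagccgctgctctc
CDC20 and MKI67 each held TTTGAA at 2 places, and DTL, a substrate receptor of the CRL4 ubiquitin ligase, and CLSPN, a mediator of checkpoint signalling at forks, each held GCGGGAA once. The log2 differences on days 3 and 4 were -2.74 and -3.07 for DTL and -2.75 and -2.80 for CLSPN. A match is a string of letters and does not show that a factor was bound.

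The regulators of the G1/S switch moved in both directions. Over all genes, 9.73% rose and 10.8% fell on day 3, and 11.4% and 13.4% on day 4. Of 26 regulators tested, 4 rose and 13 fell on each day. On day 4, 8 fell without the deeper day 4 library and 2 rose without the shallower one. MYBL2 and FOXM1, transcription factors for genes of G2 and mitosis, were at 794 and 749 and at 1742 and 1998 in untreated cells. In the DXR libraries MYBL2 was at 56.7 to 80.1 and FOXM1 at 132 to 199. CCND2, which encodes cyclin D2, moved the other way. It was at 407 and 386 in untreated cells, 2109 and 1603 on day 3 and 2134 and 2448 on day 4, log2 differences of 2.21 ± 0.13 and 2.52 ± 0.13 (adjusted p = 3.43e-05 and 1.79e-05, limma). CDKN2C, the p18 inhibitor, fell, with differences of -2.72 and -3.19, while CDKN2B, the p15 inhibitor, rose by 0.77 and 0.83. CCND1 (cyclin D1) could not be separated by library and was not tested. Its mean was 1.67 times that of untreated cells on day 3 and 1.89 times on day 4.

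Among all genes tested, 9.73% rose and 10.8% fell on day 3, and 11.4% and 13.4% on day 4. Of 29 p53 targets tested, 21 rose and 1 fell on day 3, and 22 rose and 2 fell on day 4, with medians of 0.60 and 0.52. The changes were small for most of them. MDM2, the ubiquitin ligase that degrades p53, was at 3821 and 3742 in untreated cells and at 5662 to 6185 in the DXR libraries, a log2 difference of 0.61 on day 3 and 0.65 on day 4 (adjusted p = 0.000535 and 0.000362, limma). GDF15, a secreted stress cytokine, was at 1131 and 1036, then 2766 and 2761, then 2505 and 2891, with differences of 1.35 and 1.31. SULF2, a secreted sulfatase that removes sulfate from heparan chains, had the largest rise. It was at 44.9 and 60.4 normalized counts in untreated cells, 910 and 732 on day 3 and 624 and 807 on day 4, differences of 3.94 ± 0.19 and 3.74 ± 0.19 (adjusted p = 1.33e-05 and 1.77e-05, limma). CLCA2 was at 10.5 and 25.6, 236 and 116, and 104 and 206, so that its libraries differed from each other within every group by more than those of GDF15. BAX, which permeabilizes the mitochondrial outer membrane, fell on both days. It was at 3719 and 3728 in untreated cells and at 3000 to 3128 in the DXR libraries. Without either day 4 library, the falls of p53 targets on day 4 were lost and fewer targets passed the test as higher. On day 3 fewer passed as higher without either day 3 library.

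Genes that pull cells toward and away from apoptosis were read next. Over all genes, 9.73% rose and 10.8% fell on day 3, and 11.4% and 13.4% on day 4. Of 13 BCL2 family genes tested, 3 rose on each day, and 2 fell on day 3 and 3 on day 4. BBC3 (PUMA) rose by 0.65 and 0.63 and BCL2L11 (BIM) by 1.23 and 1.20, both activators of apoptosis. The inhibitor BCL2L1 rose by 0.28 and 0.43. BCL2L11 was a low transcript, at 28.5 and 27.5 normalized counts in untreated cells and 64.2 to 69.2 in the DXR libraries. These counts were sensitive to single libraries, and without the deeper day 4 library none of the 13 passed the test on day 4.

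Genes of homologous recombination and Fanconi repair mostly fell. Of 27 tested, 1 rose and 21 fell on day 3, and 1 rose and 19 fell on day 4, with medians of -1.73 and -1.58. By comparison, 9.73% of all genes rose and 10.8% fell on day 3, and 11.4% and 13.4% on day 4. EXO1, the exonuclease that resects breaks, was at 356 and 278 normalized counts in untreated cells, 41.4 and 50.9 on day 3 and 52.7 and 45.1 on day 4. EXO1 and the helicase BLM fell, with log2 differences of -2.75 and -2.93 on day 3 and -2.67 and -2.66 on day 4. ATM, the kinase that senses double-strand breaks, was the gene that rose, by 0.26 and 0.32. Its call on day 3 was lost without the shallower day 3 or the deeper untreated library, and that on day 4 without either day 4 library. ATR had differences of 0.04 and 0.02 and did not pass the test.

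Normalized counts of clustered histone genes were higher on both days. These genes are normally transcribed in S phase and their mRNA ends in a stem-loop in place of a poly(A) tail. Which part of these mRNAs the mRNA-seq captured was not tested. Of 52 genes on the list, 20 passed the filter, and 14 of the 20 rose and 0 fell on each day by limma, with medians of 1.35 and 1.43. By comparison, 9.73% of all genes rose and 10.8% fell on day 3, and 11.4% and 13.4% on day 4. The filter used a mean that included the DXR libraries, so genes higher there passed it more easily. H2BC8 was at 85.4 and 95.2 in untreated cells, 287 and 261 on day 3 and 274 and 298 on day 4, differences of 1.59 ± 0.14 and 1.65 ± 0.14 (adjusted p = 0.000235 and 0.000185, limma). H3C10 was at 37.4 and 32.9, 144 and 95.0, and 143 and 178. Histone genes are near-identical copies, so how reads were divided among them is uncertain.

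Genes of the nuclear lamina and of high mobility group (HMG) chromatin proteins fell. Of 19 tested, 14 fell on day 3 and 15 on day 4, and 0 rose on either day. By comparison, 9.73% of all genes rose and 10.8% fell on day 3, and 11.4% and 13.4% on day 4. HMGB2, which bends DNA and is lost in senescence, was at 2067 and 1781 in untreated cells, 299 and 323 on day 3 and 346 and 320 on day 4. TMPO, which encodes the LAP2 lamina proteins, fell, with differences of -1.96 and -2.02, and SYNE2, a giant linker of the nuclear envelope, had differences of -1.28 and -1.24. In the plot of log2 differences by list these genes, the mitosis genes and the replication genes lie at or below 0 on both days.

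**Figure D2:**
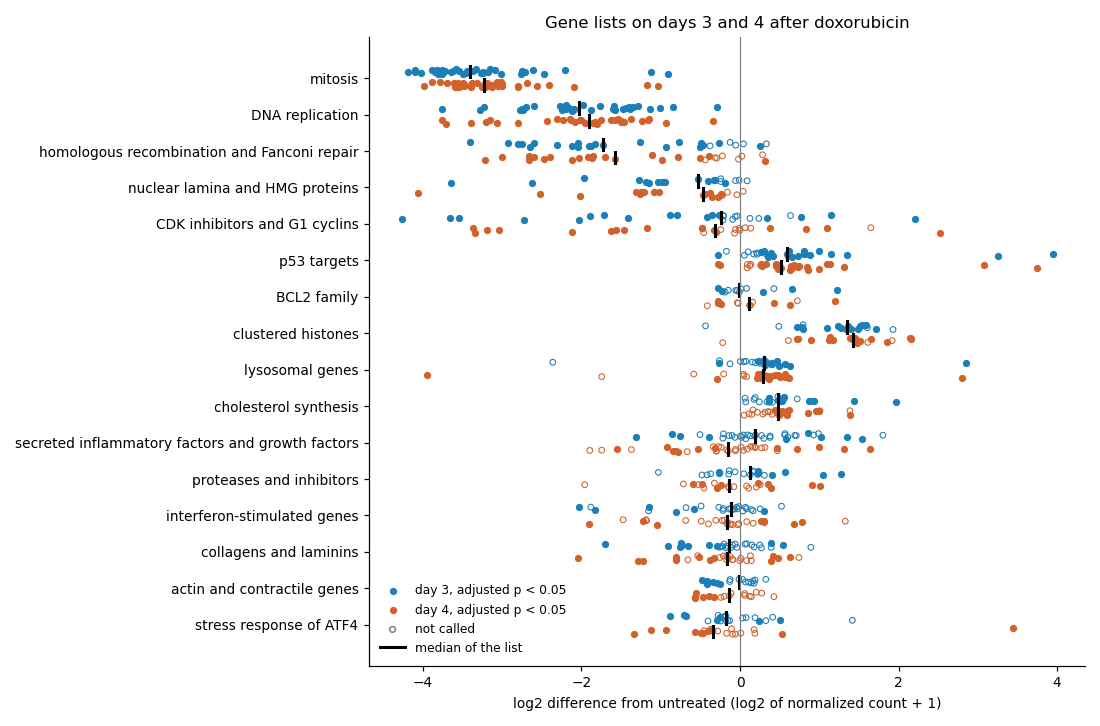
Log2 difference from untreated cells (x axis) of each tested gene of 16 lists (y axis) on day 3 (blue) and day 4 (orange). Filled points passed an adjusted p of 0.05, open points did not, and black bars are list medians, from -3.41 for mitosis to 1.43 for clustered histones.

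Genes of secreted factors did not move as a group. Over all genes, 9.73% rose and 10.8% fell on day 3, and 11.4% and 13.4% on day 4. Of 35 secreted factors tested, 5 rose and 4 fell on day 3, and 5 rose and 7 fell on day 4. On day 4, 4 fell without either day 4 library or without the deeper untreated one. IGFBP2, an IGF-binding protein, was at 878 and 551 in untreated cells, 2615 and 1551 on day 3 and 1850 and 2532 on day 4. NRG1, a ligand of ERBB receptors, rose by 1.02 and 0.99. CXCL12, the chemokine of CXCR4, fell, from 454 and 529 in untreated cells to 188 and 207 on day 3 and 150 and 186 on day 4 (log2 difference -1.31 ± 0.15 and -1.55 ± 0.15, adjusted p = 0.00104 and 0.000398, limma).

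The SASP factors IL6 and CCL2 did not pass the test on either day. IL6 was at 68.9 and 108 normalized counts in untreated cells, 63.5 and 258 on day 3 and 67.5 and 72.5 on day 4 (adjusted p = 0.517 and 0.739, limma). CCL2 was at 710 and 1061, 965 and 1801, and 895 and 1051 (adjusted p = 0.178 and 0.724, limma). The shallower day 3 library was the highest of the 6 for both genes, and its partner lay within or near the range of the other groups.

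The neutrophil chemokines CXCL1, CXCL5 and CXCL8, named after their values were seen, were split the same way. CXCL8 was at 35.9 and 247 in untreated cells, 22.6 and 1014 on day 3 and 35.9 and 36.2 on day 4. CXCL1 was at 4.49 and 43.9, 4.72 and 523, and 1.41 and 8.13, and CXCL5 at 8.99 and 32.9, 2.62 and 368, and 4.22 and 3.70. The shallower day 3 library therefore held high levels that its partner lacked. Of the 35 secreted factors, 7 (20%) were more than 2-fold higher in the shallower than in the deeper day 3 library and 0 were more than 2-fold lower, against 1.26% and 2.06% of all genes tested. In the untreated pair, 3 of the 35 were more than 2-fold higher in the shallower library and 0 lower. Without the deeper day 3 library 15 of the 35 rose on day 3, and without the shallower one 5 did, so the count of secreted factors that rose on day 3 depended on the library. The part of the difference between these libraries in the day 3 counts was not tested.

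The shares over all genes, for the lists that follow, were 9.73% higher and 10.8% lower on day 3, and 11.4% and 13.4% on day 4. Among proteases and their inhibitors, 6 of 21 tested rose and 2 fell on day 3, and 5 rose and 4 fell on day 4. On day 3, 4 rose with any one library left out, and the falls were 1 without the deeper day 3 library, 4 without the shallower one or the deeper untreated one, and 0 without the shallower untreated one (limma). On day 4, 2 rose and 1 fell without either day 4 library, 4 rose and 5 fell without the deeper untreated library, and 3 rose and 2 fell without the shallower. SERPINB2 (PAI-2) rose by 1.05 and 0.91 and ADAMTS5, an aggrecanase, by 1.27 and 1.00. TIMP1, an inhibitor of matrix metalloproteinases, was at 24790 and 25310 in untreated cells, 37410 and 37090 on day 3 and 31240 and 32540 on day 4. Of 28 genes of collagens and laminins tested, 2 rose and 8 fell on day 3, and 4 rose and 8 fell on day 4. Without either untreated library 1 rose on each day, and on day 4 1 rose and 4 fell without its deeper library and 0 rose and 5 fell without its shallower one (limma). COL4A1 and COL4A2, the chains of basement membrane collagen IV, fell, with differences of -0.76 and -0.75 on day 3 and -1.29 and -1.22 on day 4. COL15A1, also of basement membranes, was at 640 and 441 in untreated cells and at 127 to 173 in the DXR libraries. COL1A1, COL1A2, COL6A1, COL6A2 and COL6A3 could not be separated by library and were not tested. The mean of COL6A3 was 0.47 times that of untreated cells on day 3 and 0.44 times on day 4. The ratios were 0.73 and 0.68 for COL6A1, 0.73 and 0.67 for COL6A2 and 1.18 and 1.06 for COL1A2. Among actin and contractile genes, ACTB, ACTG1, MYH9 and FLNA could not be separated and were not tested. Their means were 0.78 to 0.87 times those of untreated cells on day 3 and 0.71 to 0.82 times on day 4. Of 17 actin and contractile genes tested, 0 rose and 6 fell on each day (limma), TPM1 and TPM4, the tropomyosins, each with differences of -0.42 on day 3 and -0.57 on day 4. On day 3 the falls were 4 without the shallower day 3 library and 3 without any other library of the comparison, and 1 gene rose on each day without the shallower untreated library.

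Interferon-stimulated genes did not stand out from all genes in the number called. Of 27 tested, 1 rose and 5 fell on day 3, and 4 rose and 3 fell on day 4, near the 20.6% and 24.8% of all genes called. These counts turned on single libraries. On day 3, 2 fell without the shallower day 3 library, 2 rose and 2 fell without the deeper untreated one, and 7 fell without the shallower untreated one. On day 4, 1 rose without the deeper and 0 without the shallower day 4 library (limma), and 1 rose and 8 fell without the shallower untreated one. OAS3, an activator of RNase L, was at 440 and 251 in untreated cells, 95.0 and 91.0 on day 3 and 75.9 and 102 on day 4. CGAS, the sensor of cytosolic DNA, fell, with differences of -0.81 and -1.05 (adjusted p = 0.0088 and 0.0025, limma).

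Genes of cholesterol synthesis were higher in the DXR libraries. Of 24 tested, 13 rose on day 3 and 12 on day 4, and 0 fell on either day (limma), with medians of 0.48 and 0.47, and 18 of the 24 lay above both untreated libraries in all 4 DXR libraries, against 24.9% of all genes. The share of all genes that rose was 9.73% on day 3 and 11.4% on day 4, and 10.8% and 13.4% fell. DHCR7, which makes cholesterol from its last precursor, was at 1576 and 1091 in untreated cells, 2247 and 2538 on day 3 and 2576 and 2504 on day 4. MSMO1, a sterol demethylase, rose by 0.93 and 1.00. The untreated libraries differed from each other for both genes, and the count on day 4 ranged from 3 without the deeper day 4 library, and 6 without the shallower, to 20 without the deeper untreated one, and on day 3 from 7 without the shallower day 3 library to 18 without the deeper untreated one.

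Lysosomal genes rose by small amounts. Of 26 tested, 16 rose and 1 fell on day 3, and 18 rose and 2 fell on day 4, with medians of 0.30 and 0.29. By comparison, 9.73% of all genes rose and 10.8% fell on day 3, and 11.4% and 13.4% on day 4. SQSTM1 was among the lysosomal genes that fell on day 4, with a log2 difference of -3.95 (adjusted p = 8.33e-06, limma). Its levels in libraries of other days are given below. FUCA1, the lysosomal fucosidase, had the largest mean rise among the genes of the list that were called. It was at 34.5 and 47.6 in untreated cells, 320 and 278 on day 3 and 264 and 315 on day 4, differences of 2.85 ± 0.20 and 2.80 ± 0.20 (adjusted p = 7.7e-05 and 7.98e-05, limma). GLB1, which encodes the enzyme stained as senescence-associated β-galactosidase, rose by 0.33 and 0.29. Counts fell when a library was left out, to 9 on day 3 without its deeper library or without the shallower untreated one, and to 9 and 6 on day 4 without the deeper or the shallower day 4 library.

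Targets of ATF4 in the amino acid and unfolded protein response were read next. Of all genes, 9.73% rose and 10.8% fell on day 3, and 11.4% and 13.4% on day 4. Of 21 ATF4 targets tested, 2 rose and 5 fell on day 3, and 2 rose and 8 fell on day 4. On day 3, 2 fell without the deeper day 3 library, 3 fell without the deeper untreated one, 0 rose without the shallower day 3 one, and 0 rose and 8 fell without the shallower untreated one (limma). On day 4, 0 rose and 5 fell without either day 4 library, and 1 rose and 11 fell without the shallower untreated one. PCK2, a mitochondrial enzyme that makes phosphoenolpyruvate, had the largest difference of the list. Its untreated values were under the filter level of 10, so it passed the filter through DXR libraries. It was at 8.99 and 5.49 normalized counts in untreated cells, 8.39 and 48.2 on day 3 and 91.4 and 82.1 on day 4, and rose on day 4 (log2 difference 3.44 ± 0.695, adjusted p = 0.0104, limma). That call was lost without either day 4 library or the shallower untreated one. On other days, scaled over all 18 libraries, PCK2 was at 45.9 and 39.2 on day 1, 14.8 and 7.75 on day 6 and 76.1 and 11.6 on day 8. Its values stayed under 100, so it was left out of the count of split genes given below. SLC7A5, a leucine transporter, had differences of -0.71 and -1.34, PHGDH, the first enzyme of serine synthesis, of -0.88 and -1.12, and CHAC1, which degrades glutathione, of -0.68 and -0.94.

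Day 4 was compared with day 3 directly. The difference does not contain the untreated cells, although their spread entered the shared error of the fit. Of 14559 genes, 3 passed the test (0.0206%), 1 higher (0.00687%) and 2 lower (0.0137%) on day 4, and 475 had an unadjusted p under 0.05 (limma). The median difference was -0.00027. With all 18 libraries in the fit, 1 gene passed, higher on day 4, and SQSTM1 did not. SQSTM1, which encodes the autophagy receptor p62, was at 4428 and 3400 on day 3 and 219 and 258 on day 4, and at 3867 and 3510 in untreated cells (log2 difference day 4 minus day 3, -4.02; adjusted p = 3.61e-05, limma). SLC25A24, a mitochondrial carrier for ATP-Mg, and C1R, a complement protease, were the others and are named because they passed. SLC25A24 was at 429 and 286 on day 3 and 24.6 and 22.2 on day 4, and C1R at 40.4 and 28.1 on day 3 and 484 and 627 on day 4.

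**Figure D3:**
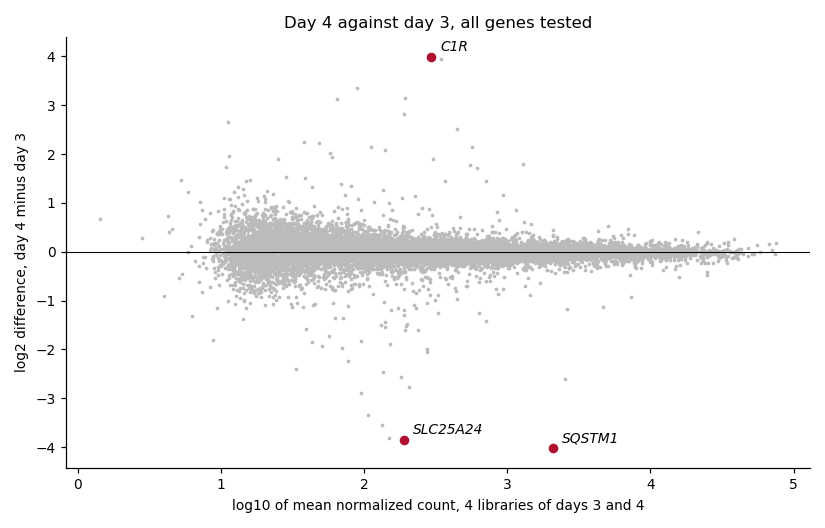
Log2 difference of day 4 minus day 3 (y axis) against the log10 mean normalized count of the 4 libraries of these days (x axis) for 14559 genes (grey). Of all genes 3 passed an adjusted p of 0.05 (red): C1R at 3.99, SLC25A24 at -3.85 and SQSTM1 at -4.02.

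These 3 genes also sat at separate levels in libraries of other days. On the scale of all 18 untreated and DXR libraries, SQSTM1 was at 2152 and 214 in the 2 libraries of day 2, at 318 and 327 on day 6, at 4607 and 5168 on day 8 and at 316 and 247 on day 16. SLC25A24 was at 31.1 and 170 on day 0, 158 and 41.3 on day 2 and 21.1 and 264 on day 16. C1R was high on days 4 and 8 only, at 383 and 209 on day 8 and under 100 in the other libraries. GSDMD, the pore protein of pyroptosis, and FBL, the fibrillarin of nucleolar RNA modification, were split in the same manner. GSDMD was at 301 and 257 in untreated cells, 9.67 and 5.85 on day 3, 6.33 and 216 on day 6 and 259 and 16.1 on day 16, and FBL, named after its values were seen, at 997 and 67.8 in untreated cells and 15.9 and 1327 on day 3. In all, 146 genes (1%) differed at least 4-fold between the 2 libraries of at least 1 of 9 groups, with a level of at least 100 in the higher one, and 93 of them in 2 or more groups. Of these 146 genes 7 were called on day 3 and 12 on day 4, against 20.6% and 24.8% of all genes tested. MICA, a ligand of NKG2D, was among those called, at 22.5 and 53.1 in untreated cells, 236 and 526 on day 3 and 543 and 162 on day 4. The part of these split levels in the calls was not tested.

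**Figure D4:**
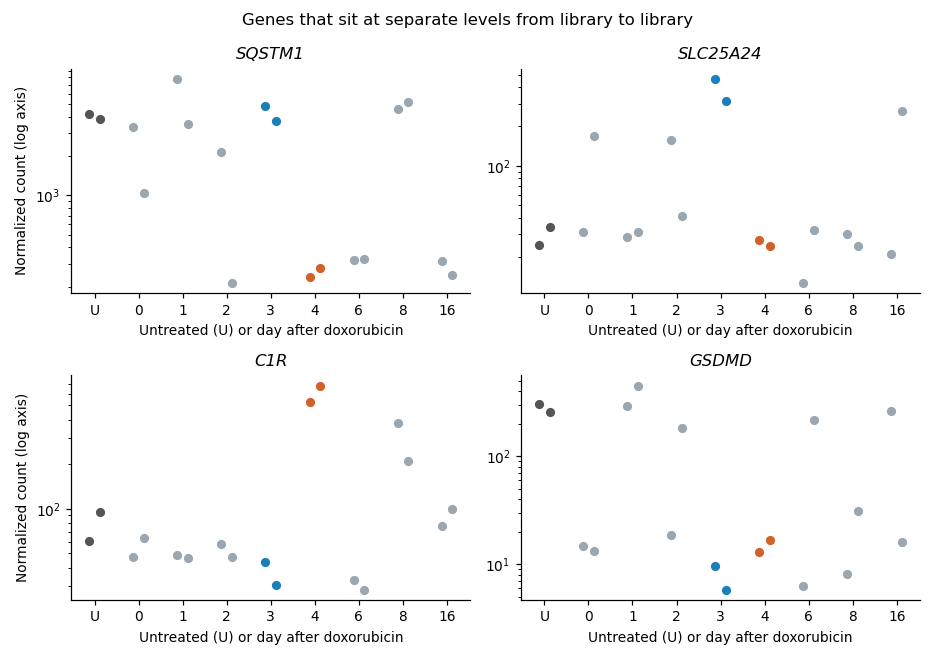
Normalized counts (log axis) of 4 genes in the untreated libraries (U) and on each of 8 days after DXR, one point per library. SQSTM1, SLC25A24 and GSDMD are high in one library and low in the other on at least one day, and C1R is high on days 4 and 8.

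Days 3 and 4 were then placed in the course after DXR. The mean of their 4 libraries was compared with day 0 and with day 16 in one fit of 18 libraries, and the differences do not contain the untreated cells, whose spread entered the shared error. Against day 0, 5390 of 14454 genes differed (37.3%), 2883 higher (19.9%) and 2507 lower (17.3%). Against day 16, 4266 differed (29.5%), 2316 higher (16%) and 1950 lower (13.5%).

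The mitosis genes were higher on days 3 and 4 than on day 0. Of 36, 31 were higher and 0 lower (limma), with a median of 1.30, and 25 were higher and 0 lower than on day 16. MKI67 was at 93.1 and 103 on day 0, 19.95 and 29.97 on day 1, 278 and 339 on day 3, 454 and 324 on day 4 and 195 and 106 on day 16. It was 1.79 higher than on day 0 and 1.24 higher than on day 16 (log2; adjusted p = 7.4e-05 and 0.002, limma), against 5975 and 4689 in untreated cells. LMNB1 was 0.75 and 0.83 higher (adjusted p = 0.0098 and 0.007, limma). Of 32 replication genes, 15 were higher and 7 lower than on day 0, and 15 higher and 1 lower than on day 16. TK1 was one of those lower than on day 0, when it was at 1126 and 1338, with a log2 difference of -2.68, and PCNA had one of -1.95.

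The p53 targets were lower on days 3 and 4 than on day 0. Of 28 tested, 28 were lower and 0 higher (limma), with a median of -1.04, and against day 16 6 were higher and 1 lower. CDKN1A was not among the 28, because its day 0 libraries could not be separated. GDF15 was at 13420 and 20560 on day 0 and MDM2 at 11910 and 13970. The difference of days 3 and 4 from day 0 was -2.48 for GDF15 and -1.02 for MDM2. The clustered histones were lower than on day 0 too, 13 of 20 with 0 higher (limma), and 8 were lower than on day 16. H2BC8 was at 1262 and 1363 on day 0, 210 and 224 on day 2, 311 and 285 on day 3 and 629 and 478 on day 16.

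Other genes were between early and late levels. CCND2 was at 1179 and 1440 on day 0 and 8930 and 9851 on day 16, so that days 3 and 4 had a log2 difference of 0.78 from the first and -2.07 from the second ( adjusted p = 0.00081 and 4.2e-07, limma). For CDKN2A the differences were 0.84 from day 0 and -0.44 from day 16 (adjusted p = 5.5e-05 and 0.0097, limma). For CCL2 they were 1.40 and -1.24 (adjusted p = 0.0032 and 0.0094, limma). CXCL12 was lower on days 3 and 4 than at either end, with differences of -2.03 from day 0 and -1.20 from day 16. Of 27 interferon-stimulated genes, 16 were lower than on day 16 and 1 higher.

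**Figure D5:**
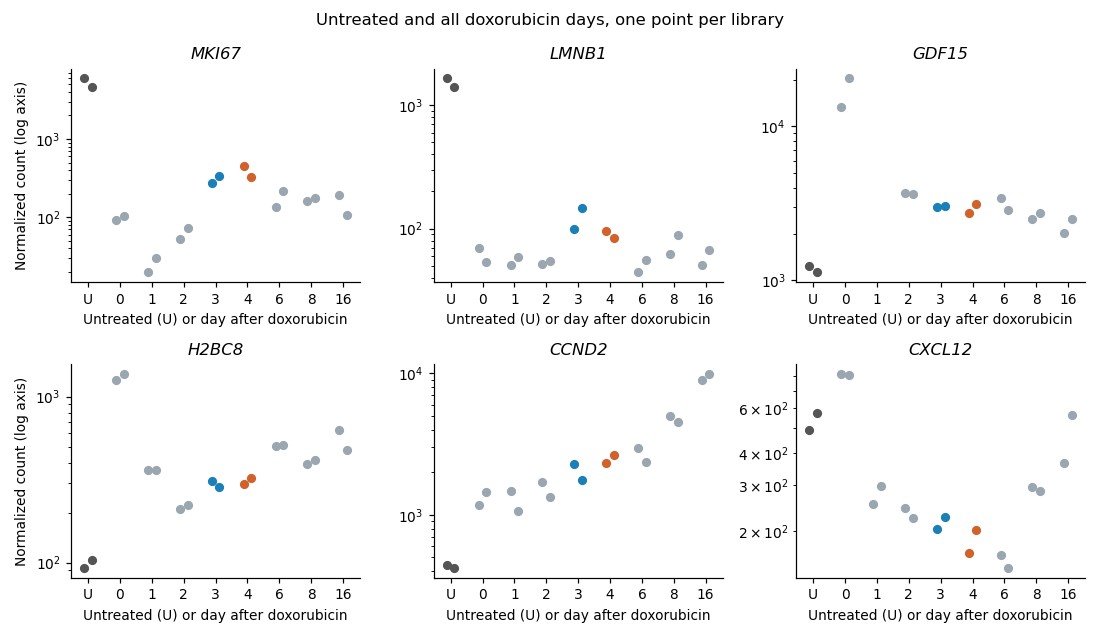
Normalized counts (log axis) of 6 genes in the untreated libraries (U) and on each of 8 days after DXR, one point per library, with days 3 and 4 in colour. MKI67 has its highest level after DXR on days 3 and 4, GDF15 and H2BC8 are highest on day 0, and CCND2 is highest on day 16. The 2 day 1 libraries of GDF15 could not be separated and are not drawn.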

How the data were processed

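mRNA-seq of WI-38 cells was performed with 2 libraries per group. According to the submitters' processing notes, Trim Galore, HISAT2, HTSeq, featureCounts and DESeq2 were used with GRCh38 (hg38); their order and versions are not given in the sources used here. Each deposited table compares 1 group with the untreated cells. From it the deposited signal was used, the mean normalized count over 4 libraries that the authors computed by dividing reads by size factors. The authors' log2 fold changes, standard errors, test statistics, p-values and adjusted p-values in the same tables were not used.

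The reads of each library were recovered from that mean. The weight of 1 read in each library was taken from features with 1 read in 1 library. The untreated reads were solved over 10 tables written to 15 digits by lattice reduction (sympy 1.14.0), and the 2 libraries of a day were then solved from its 10-digit table. Where several splits fitted, those within the 1st to 99th percentile of the usual split were taken, or the whole usual range if none lay there. For such genes this choice bounded how far the 2 libraries could differ, so their spread was partly set by it. Several splits still remained for some genes with means from 20350 on day 3 and 24240 on day 4. CDKN1A, TIMP1 and COL4A2 had higher means than these, so their spread may be affected. Of 14603 genes 44 could not be separated and were not tested. Day 1 values were missing for 2452 genes. The recovered libraries cannot be tied to replicate numbers. The study's methods state independent samples.

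Counts were divided by median-of-ratios size factors and tested as log2(normalized count + 1) with limma 3.58.1 (R 4.3.3; lmFit, contrasts.fit, eBayes with a trend), two-sided, with Benjamini-Hochberg adjustment over all genes tested and a threshold of 0.05. The untreated, day 3 and day 4 libraries (6) shared one fit, and days 0 and 16 were compared in a fit of 18 libraries. Values on the log2(count + 1) scale understate changes of low genes. Scripts were tested on simulated data. No genes were compared in level with each other.

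The genes, lists and tests were chosen with earlier results of these data known. Named genes were 8 markers, up to 4 called genes with the largest mean difference of each list, the 10 highest and 10 lowest mean differences among genes called alike on both days with a mean of at least 100 and no overlap with untreated cells, and up to 6 rises and 6 falls from day 3 to day 4. Other genes named in counts or as the extremes of a list (such as AURKA, PCNA, ATM, ATR, GLB1, CDKN2B, DTL and CLSPN) were chosen after their values were seen. Alternatives tried were other pseudocounts, filters, scaling, voom weights, a fold threshold, other sets of libraries and each library left out.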

Additional observations from a re-analysis of the deposited data

Results flagged for a closer look

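Day 4 and day 3 cells differed in 3 genes by a direct test of the difference (limma, adjusted p under 0.05). SQSTM1 was lower on day 4 than on day 3 in both libraries, with a log2 difference of -4.02 (adjusted p = 3.61e-05). SLC25A24 was lower in both, with a difference of -3.85 (adjusted p = 0.00461). C1R was higher in both, with a difference of 3.99 (adjusted p = 0.00461). SQSTM1 and SLC25A24 were among the 146 genes whose 2 libraries differed at least 4-fold in some group.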

How the results depend on the processing

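No value of a single named gene that passed the test in the main or the alternative fit reversed under the alternatives run. Over all genes, the balance of higher and lower turned under several of them. Scaling by total reads gave 1549 higher and 1460 lower on day 3, and 1916 and 1744 on day 4. Voom weights gave 2472 higher and 2515 lower against day 0, and 1637 and 1870 against day 16. A log2 difference of at least 1 gave 294 and 536 against day 0, and 171 and 417 against day 16. Over lists, the balance of genes that rose and fell could also turn with a single library left out. On day 4 it did so for interferon-stimulated genes, proteases and secreted factors. Of 69 counts of genes recomputed, 53 stayed within 1.5 times the value reported. Of the values of single named genes, 5084 kept their side of the threshold, 193 were no longer called and 48 were newly called. Changes of direction were not counted where neither fit called the gene. Requiring a log2 difference of at least 1 left 574 genes on day 3, 652 on day 4, 830 against day 0 and 588 against day 16. With only the 4 libraries compared, 1916 genes were called on day 3. For day 4 against day 3, 1 gene was called with a mean of at least 100, 1 with all 18 libraries in the fit, and 1 without the genes whose pair differed 4-fold, an alternative chosen after seeing the data. With one library left out, the counts were 1933 to 2501 on day 3, 1306 to 3040 on day 4, 1 to 46 for day 4 against day 3, 3513 to 5045 against day 0 and 2767 to 3977 against day 16. The 46 came without the deeper day 3 library, and 41 of them were lower on day 4. Without the shallower day 3 library 6 genes were called, and without the shallower day 4 library 1. SQSTM1 was among those called with each library left out, but not with all 18 libraries in the fit. The count on day 3 was lowest without its shallower library, and that on day 4 was 1306 without its deeper and 1369 without its shallower library. Against day 0 it was lowest without the shallower day 0 library, and against day 16 without the deeper day 16 library. Where a group was left with 1 library, that library was assumed to vary like the other groups. The cause of these changes was not tested. No paired analysis was possible because the recovered libraries carry no replicate number. Total scaling moved the median difference of all genes to 0.0199 on day 3 and 0.0339 on day 4. A gene that did not pass the test with 2 libraries per group is not shown to be equal between groups. Calls against untreated cells were lost with at least one library left out for CDKN2A, ADAMTS5, BBC3, BCL2L1, MICA and TPM1 on both days, for COL4A1 and SLC7A5 on day 3, and for BAX, BCL2L11, CLCA2, IGFBP2, MSMO1, PCK2, SERPINB2 and TIMP1 on day 4. Against day 16 the calls of MKI67, CCL2 and CDKN2A were lost without the shallower and that of LMNB1 without the deeper day 16 library, and against day 0 that of LMNB1 without the shallower and that of CCL2 without the deeper day 0 library.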
